A study of Mus musculus with 9 samples.

Results

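The Kruppel-like factor (KLF) family was followed over 3 mouse cell lines through 10 of its members: Klf2, Klf3, Klf4, Klf5, Klf6, Klf7, Klf9, Klf10, Klf13 and Klf16. They were found by their gene symbol in the array annotation, out of 19938 genes with a single symbol, and each was read by 1 probe set of the array. The lines were P19 cells, a mouse embryonal carcinoma (EC) line; P19 NTES7 cells, which the labels describe as pluripotent stem cells derived from P19 cells; and R1 cells, a normal mouse embryonic stem (ES) cell line. RNA of each line was hybridised to 3 Affymetrix GeneChip Gene 1.0 ST arrays, 9 in all, and the labels call the 3 samples of a line biological repeats. No separate cultures are named, and the p-values thus describe only how far these samples spread, which may be technical. According to the methods, P19 NTES cells came from cloned embryos made by transferring P19 nuclei into enucleated oocytes, so P19 NTES7 stands for 1 derived line. All 3 lines grew in the same serum-containing ES medium with leukemia inhibitory factor (LIF). The methods place mitomycin-treated mouse embryonic fibroblasts under the stem cell lines as feeder cells, and the series description says that feeder cells were cleared before RNA extraction.

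KLF proteins are transcription factors that bind GC-rich and CACCC-type DNA elements through zinc fingers at their C-terminal end, and they differ mainly in the part that recruits coactivators or corepressors. In mouse ES cells, Klf2, Klf4 and Klf5 are the members known for sustaining self-renewal, with overlapping targets. Klf4 is also one of the classic reprogramming factors and is induced by LIF through Stat3. These members are here called the naive members, after the ground state of pluripotency that they help to maintain.

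Values were intensities as deposited, on the linear scale. The median intensity over all probe sets and arrays was 16.9, and the level of 1 gene cannot be set against that of another on such arrays. The log2 SD between arrays of a line had a median of 0.106, 0.132 and 0.121 in the order P19, P19 NTES7, R1 over all probe sets. A probe set was called where the adjusted p (limma, Benjamini-Hochberg over all 28853 probe sets) was under 0.01 and the fold was over 2. The lower quartile of intensity was 9.58 to 9.81 on 5 arrays (all of P19, R1 replicate 3 and P19 NTES7 replicate 1) and 10.3 to 10.6 on the other 4. After this was seen, a fit on those 5 arrays alone was added, in which R1 and P19 NTES7 have 1 array each and the spread comes from P19 only; its differences are given as values without a test. All 8 markers of pluripotent cells, among them Pou5f1, Sox2 and Nanog, lay above the array median in each line. Their levels were not all alike. Between R1 and P19 the list had 2 calls, Nanog and Dppa4, both higher in R1. From P19 to P19 NTES7, Nanog rose and Utf1 fell, each with a call. Set against R1, P19 NTES7 had 2 calls, Utf1 and Dppa4, both downward. Utf1 had means of 471, 73.5 and 584 in the order P19, P19 NTES7, R1. In bulk RNA, fewer cells that express a gene and less RNA per cell cannot be told apart.

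Counted over the 10 members, 4 were called higher in R1 than in P19 (Klf2, Klf4, Klf5 and Klf9) and 0 lower. The shares over all probe sets were 3.70% for higher and 3.70% for lower, 7.40% together. Between P19 NTES7 and P19, again 4 members were called higher (Klf2, Klf4, Klf5 and Klf6) and 0 lower, beside 1.55% and 1.36% of all probe sets, 2.91% together. Between P19 NTES7 and R1, 0 members were called higher and 5 lower (Klf2, Klf3, Klf4, Klf5 and Klf9), beside 1.99% and 2.53% of all probe sets, 4.52% together. With the p limit alone, 7 members were higher and 1 lower in R1 than in P19, beside 10.1% and 12.9% of all probe sets. The corresponding counts were 6 higher and 2 lower for P19 NTES7 against P19 (4.71% and 6.59%), and 1 higher and 5 lower for P19 NTES7 against R1 (8.72% and 8.36%). The arrays of the compared lines did not overlap for 10, 9 and 7 of the 10 members in the order of these comparisons, beside 45.3%, 34.4% and 36.6% of all probe sets. Any pair of these comparisons shares the arrays of a line, so their counts are not independent of each other.

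Promoter windows show what lies upstream of the members that moved together and of one that moved the other way. The 250 bases before the annotated start were available from RefSeq (GRCm38.p6) for 7 of the 10 members, all but Klf5, Klf10 and Klf16. Klf2, Klf4 and Klf9 were all called higher in R1 than in P19, whereas Klf7 was lower there, under the fold limit. Klf2 was read at chr8:72318812-72319061 on the plus strand, Klf4 at chr4:55532476-55532725 on the minus strand, Klf9 at chr19:23140976-23141225 on the plus strand and Klf7 at chr1:64121390-64121639 on the minus strand. In the sequences, 5′ to 3′ on the strand of the gene, capitals mark GGGCGG (the GC box), CACCC (the CACCC box) and TTCNNNGAA (the STAT element), each searched on both strands:
Klf2: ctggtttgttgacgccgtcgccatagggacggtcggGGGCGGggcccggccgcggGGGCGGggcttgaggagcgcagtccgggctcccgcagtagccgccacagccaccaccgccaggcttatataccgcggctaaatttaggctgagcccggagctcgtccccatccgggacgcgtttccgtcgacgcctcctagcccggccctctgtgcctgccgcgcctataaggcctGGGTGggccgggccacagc
Klf4: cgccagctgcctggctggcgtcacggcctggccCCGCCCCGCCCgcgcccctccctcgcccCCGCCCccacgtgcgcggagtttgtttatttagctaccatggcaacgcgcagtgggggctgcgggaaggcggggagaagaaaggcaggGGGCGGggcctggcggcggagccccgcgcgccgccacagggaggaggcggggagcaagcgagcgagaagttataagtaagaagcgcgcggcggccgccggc
Klf9: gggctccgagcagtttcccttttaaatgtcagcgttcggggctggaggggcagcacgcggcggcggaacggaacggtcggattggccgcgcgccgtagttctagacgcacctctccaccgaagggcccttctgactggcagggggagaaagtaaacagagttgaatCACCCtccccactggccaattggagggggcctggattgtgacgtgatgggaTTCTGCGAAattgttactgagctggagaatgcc
Klf7: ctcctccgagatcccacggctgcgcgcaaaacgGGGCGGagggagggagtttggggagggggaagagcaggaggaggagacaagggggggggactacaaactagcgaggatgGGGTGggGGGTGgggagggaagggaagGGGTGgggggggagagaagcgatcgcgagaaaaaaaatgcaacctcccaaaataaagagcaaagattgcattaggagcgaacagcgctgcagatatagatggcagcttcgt

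The window of Klf4 held 4 GC boxes, of which the 2 farthest upstream overlapped by 1 base, and no CACCC box. The window of Klf2 held 2 GC boxes and 1 CACCC box. The window of Klf9 was the only one of the 7 with a STAT element, from 33 to 25 bases before the start, and had no GC box. The window of Klf7 held 1 GC box and 3 CACCC boxes. Of the 7 windows, 6 held a GC box, against 32.7% of all 32851 RefSeq windows, and 5 held a CACCC box, against 52.0%. The STAT element stood in 7.02% of all windows. None of the 7 held a CArG box, the element of serum response factor, which stood in 1.47% of all windows. The number of CpG dinucleotides was 32 in the window of Klf4, 29 in that of Klf2, 18 in that of Klf9 and 13 in that of Klf7, beside a median of 6 and an upper quartile of 16 over all windows. Klf13, Klf3 and Klf6, not called between R1 and P19, had 24, 23 and 21, all more than Klf9. Their windows held 3, 6 and 1 GC boxes in that order, so neither count followed the calls. These matches describe letters in a window, and no binding was measured.

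**Figure D1:**
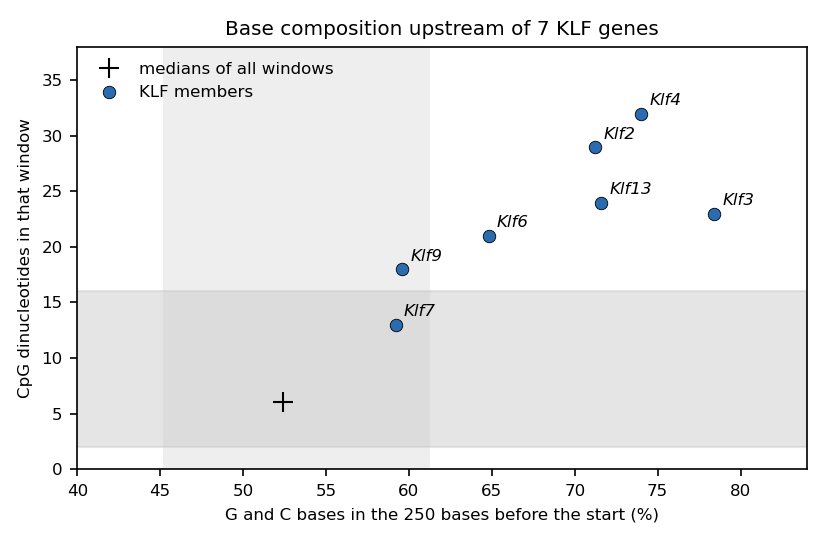
Base composition of the 250 bases before the RefSeq start of 7 KLF genes, with the percentage of G and C bases on the x axis and the number of CpG dinucleotides on the y axis; grey bands span the quartiles of all 32851 windows and the cross marks their medians (52.4% and 6). All genes but Klf7 lie above the upper quartile of the CpG count, and Klf7 and Klf9 lie below the upper quartile of G and C content (61.2%).

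The 3 naive members had the same order in every comparison: lowest in P19, intermediate in P19 NTES7 and highest in R1. Each step was called, and the arrays of no pair of lines overlapped. Klf4 had the largest fold between R1 and P19 of the 10 members on log2 of the deposited values; with a pseudocount of 16, the log2 differences were 2.28 for Klf4, 2.28 for Klf5 and 2.26 for Klf2.

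Klf4 read 12.2, 13.3 and 13.6 on the 3 P19 arrays, 43.0, 36.7 and 44.8 on the P19 NTES7 arrays, and 122, 131 and 124 on the R1 arrays. Its P19 mean of 13.0 ± 0.711 (SD, n = 3) was below the median of the probe sets, the only mean of a member in any line for which this was so. Against P19, the log2 difference was 3.27 in R1 (SE 0.10, 9.63-fold, adjusted p = 6.57e-11) and 1.67 in P19 NTES7 (SE 0.10, 3.17-fold, adjusted p = 1.23e-07). P19 NTES7 cells remained 3.04-fold below R1 cells (log2 difference -1.60, SE 0.10, adjusted p = 8.24e-08).

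Klf2, whose product is turned over in response to MEK and ERK signalling, read 25.2, 21.3 and 16.9 in P19, 59.7, 42.6 and 57.4 in P19 NTES7, and 158, 152 and 173 in R1. The P19 arrays were the most spread in relative terms, and all lay below the lowest P19 NTES7 array. The log2 difference from P19 was 2.95 in R1 (SE 0.15, 7.72-fold, adjusted p = 7.17e-09) and 1.34 in P19 NTES7 (SE 0.15, 2.53-fold, adjusted p = 3.86e-05). From R1 to P19 NTES7 the level was 3.06-fold lower (log2 difference -1.61, SE 0.15, adjusted p = 4.37e-06), and between the single arrays with a low lower quartile this difference was -1.54.

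Klf5, which is also needed for the inner cell mass and the trophectoderm of the embryo, read 50.5, 44.2 and 39.96 in P19, 152, 122 and 134 in P19 NTES7, and 276, 287 and 271 in R1. It was 6.22-fold higher in R1 than in P19 (log2 difference 2.64, SE 0.11, adjusted p = 9.41e-10) and 3.03-fold higher in P19 NTES7 than in P19 (1.60, SE 0.11, adjusted p = 4.21e-07). The step from R1 to P19 NTES7 was the smallest of the naive members, at 2.05-fold lower (log2 difference -1.04, SE 0.11, adjusted p = 1.42e-05). That call lies at the fold limit and was lost without P19 NTES7 replicate 2, and with a pseudocount of 16, where the log2 difference was -0.96 in both cases. Between the single arrays of each line with a low lower quartile it was -0.84.

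**Figure D2:**
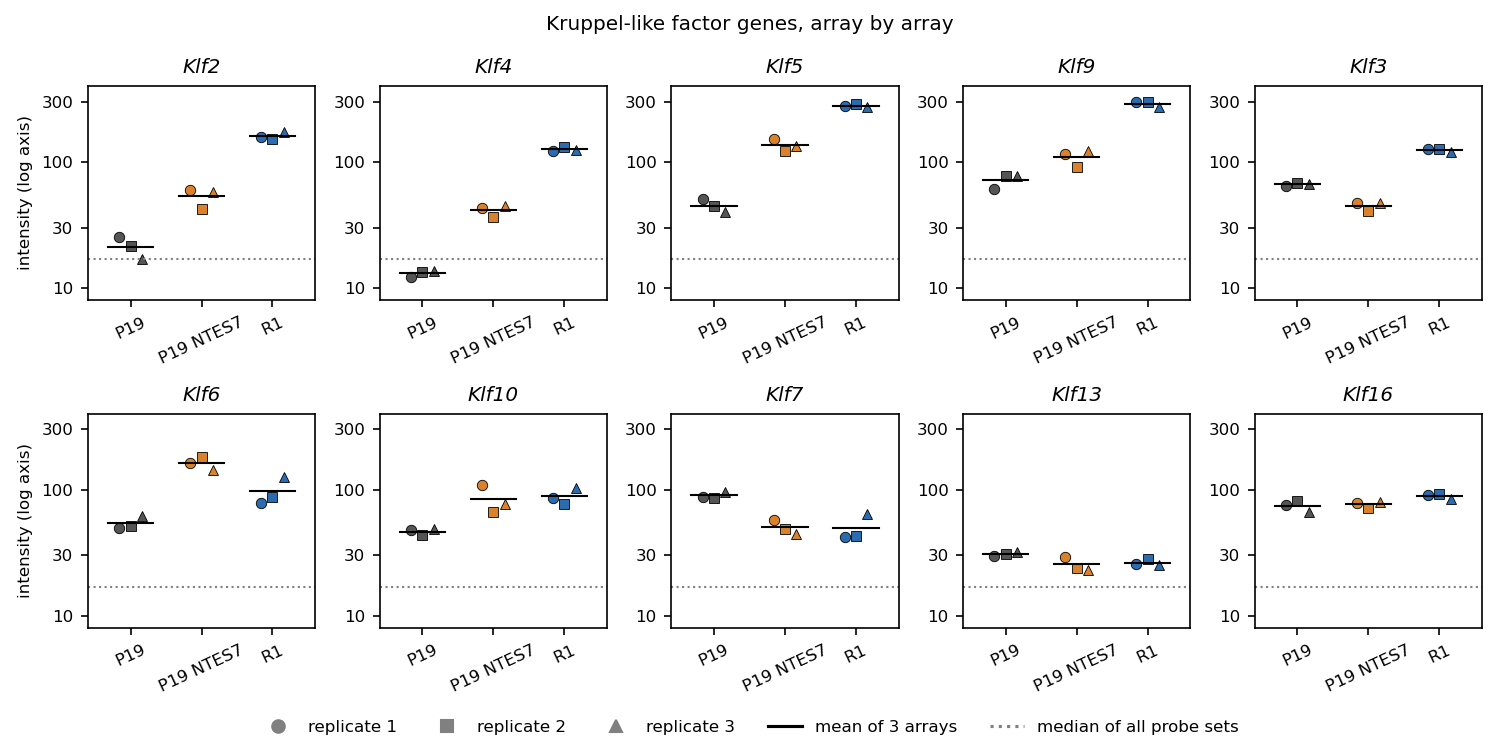
Intensity (log axis) of the 10 KLF genes in the 3 P19, 3 P19 NTES7 and 3 R1 arrays, 1 symbol per array with the mean as a black line and the median of all probe sets (16.9) as a dotted line. Klf2, Klf4 and Klf5 climb from P19 over P19 NTES7 to R1 without overlap, Klf3 is lowest in P19 NTES7, Klf6 is highest there, and Klf7 is highest in P19.

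Among the other 7 members, Klf9 came closest to this pattern. Klf9, a repressor that recruits the Sin3A complex and is induced by glucocorticoid and thyroid hormones, read 61.0, 77.4 and 76.9 in P19, 114, 90.5 and 121 in P19 NTES7, and 296, 300.1 and 275 in R1. It was 4.07-fold higher in R1 than in P19 (log2 difference 2.02, SE 0.13, adjusted p = 4.41e-08), and P19 NTES7 was 2.69-fold below R1 (-1.43, SE 0.13, adjusted p = 2.56e-06). The arrays of P19 NTES7 and P19 did not overlap, but their difference of 0.60 (SE 0.13, 1.51-fold, adjusted p = 0.00506) was under the fold limit, and it lost the p limit without P19 NTES7 replicate 1 (0.0214), without P19 NTES7 replicate 3 (0.028), without P19 replicate 1 (0.0293) and without P19 replicate 2 (0.0103).

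Klf3, a repressor that acts through the corepressor CtBP, was lowest in P19 NTES7. It read 64.8, 68.1 and 66.8 in P19, 47.3, 40.4 and 47.0 in P19 NTES7, and 126, 127 and 120.2 in R1, with no overlap between any lines. P19 NTES7 was 2.78-fold below R1 (log2 difference -1.48, SE 0.095, adjusted p = 9.48e-08). R1 was 1.87-fold above P19 (0.90, SE 0.095, adjusted p = 5.67e-06) and P19 NTES7 was 1.49-fold below P19 (-0.57, SE 0.095, adjusted p = 0.000811), both under the fold limit. Thus P19 NTES7 lay on the far side of P19 from R1 for this member.

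Klf6 was the reverse, with its highest level in P19 NTES7. Klf6, a regulator of cell growth that is induced by serum and injury, read 49.1, 51.8 and 61.4 in P19, 162, 181 and 144 in P19 NTES7, and 78.8, 87.1 and 125 in R1. It was 3.0-fold higher in P19 NTES7 than in P19 (log2 difference 1.59, SE 0.16, adjusted p = 1.23e-05). R1 lay between them, 1.77-fold above P19 (0.82, SE 0.16, adjusted p = 0.00119) and 1.70-fold below P19 NTES7 (P19 NTES7 minus R1 0.77, SE 0.16, adjusted p = 0.00271). The last value lost the p limit when single arrays were left out, at 0.0119 without P19 NTES7 replicate 1, 0.0176 without P19 NTES7 replicate 2, 0.0143 without R1 replicate 1 and 0.0134 without R1 replicate 2. Between the single P19 NTES7 and R1 arrays with a low lower quartile it was 0.38, and this R1 array, replicate 3, was the highest of its line for Klf6.

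Klf10, which was first described as an early gene induced by TGF-beta, read 47.4, 43.3 and 48.5 in P19, 108, 66.0 and 76.6 in P19 NTES7, and 85.5, 76.9 and 103 in R1. Both stem cell lines lay above P19 on every array, by 1.90-fold in R1 (log2 difference 0.92, SE 0.16, adjusted p = 0.000534) and by 1.76-fold in P19 NTES7 (0.82, SE 0.16, adjusted p = 0.00279). Without R1 replicate 2 the first difference was 1.02 and passed the fold limit, and the second lost the p limit without P19 replicate 1 (adjusted p = 0.0104) or P19 replicate 2 (adjusted p = 0.0163). P19 NTES7 and R1 overlapped (-0.11, with a 95% confidence interval of -0.45 to 0.24, adjusted p = 0.711).

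Klf7, which is known for its role in neurons and in fat cell precursors, was the only member past the p limit with its highest level in P19. It read 88.1, 86.2 and 95.4 there, 57.4, 49.0 and 44.1 in P19 NTES7, and 42.03, 43.0 and 64.0 in R1. It was 1.84-fold lower in R1 (log2 difference -0.88, SE 0.15, adjusted p = 0.000476) and 1.80-fold lower in P19 NTES7 (-0.85, SE 0.15, adjusted p = 0.0014) than in P19. Without R1 replicate 3, the highest array of its line, the difference between R1 and P19 was -1.08 and passed both limits, and without P19 NTES7 replicate 3 that between P19 NTES7 and P19 had an adjusted p of 0.0101. R1 replicate 3 alone differed from the P19 mean by -0.49. The difference between P19 NTES7 and R1 was 0.03, with a 95% confidence interval of -0.30 to 0.36.

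Klf13 and Klf16, both of which can recruit Sin3A, passed no limit in any comparison. Klf13 read 29.5, 30.7 and 31.7 in P19, 29.2, 23.9 and 23.2 in P19 NTES7, and 25.6, 28.0 and 25.01 in R1. Its P19 arrays lay above all of the other arrays, with a log2 difference from P19 of -0.23 in R1 (SE 0.11, adjusted p = 0.128) and -0.28 in P19 NTES7 (SE 0.11, adjusted p = 0.0956). Klf16 read 75.1, 81.1 and 66.5 in P19, 78.0, 71.1 and 80.2 in P19 NTES7, and 90.9, 92.0 and 83.8 in R1. The R1 arrays of Klf16 were all above those of the other lines, with a log2 difference from P19 of 0.26 (95% confidence interval 0.04 to 0.49, adjusted p = 0.0675).

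The naive members had larger median differences than the other members in each comparison, which was not tested because the members were chosen with results known. Their median log2 difference was 2.95 between R1 and P19 (range 2.64 to 3.27), while that of the other 7 was 0.82 (range -0.88 to 2.02) and that of all probe sets 0.031. Between P19 NTES7 and P19 the medians were 1.60 for the naive members (1.34 to 1.67), 0.05 for the others (-0.85 to 1.59) and 0.032 for all probe sets. Between P19 NTES7 and R1 they were -1.60 (-1.61 to -1.04), -0.11 (-1.48 to 0.77) and 0.0063. The ranges of the 2 sets did not overlap between R1 and P19, and they did in both comparisons with P19 NTES7, through Klf6 in one and through Klf3 and Klf9 in the other.

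**Figure D3:**
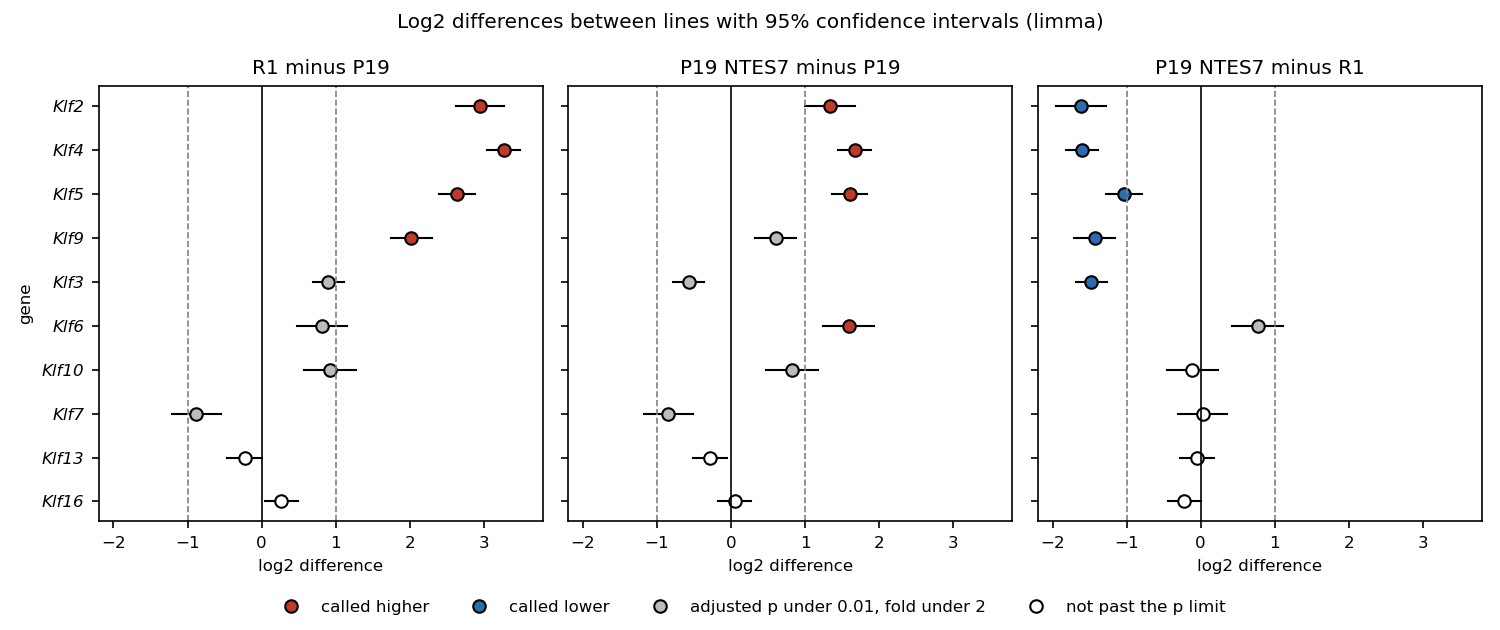
Log2 differences of the 10 KLF genes between pairs of lines with 95% confidence intervals from limma; dashed lines mark a fold of 2 and fill colours the calls. Klf2, Klf4 and Klf5 are called in all 3 panels, Klf9 in the panels with R1, Klf6 between P19 NTES7 and P19, and Klf3 between P19 NTES7 and R1.

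For the members that were called between R1 and P19, the level in P19 NTES7 was also expressed as a share of the log2 distance from P19 to R1. This share was 0.607 for Klf5 (SD 0.060 over the 3 P19 NTES7 arrays), 0.510 for Klf4 (SD 0.046), 0.453 for Klf2 (SD 0.090) and 0.295 for Klf9 (SD 0.11). P19 NTES7 replicate 2 gave the lowest share for each of them, down to 0.350 for Klf2 and 0.169 for Klf9. That array was the lowest of its line for 7 of the 10 members and the highest for Klf6. The lowest share of Klf5 (0.549) was next to the highest of Klf4 (0.545), while the shares of Klf4 and Klf2, and those of Klf2 and Klf9, overlapped. No test was made, because P19 arrays stand in the numerator and the denominator.

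**Figure D4:**
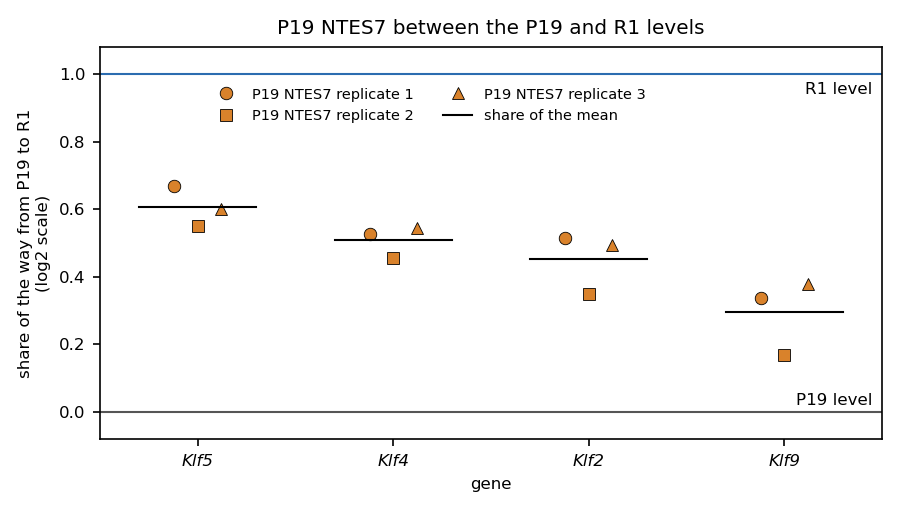
Level of Klf5, Klf4, Klf2 and Klf9 in each of the 3 P19 NTES7 arrays as a share of the log2 distance from the P19 mean (0) to the R1 mean (1), with the share of the mean as a line. All points lie between the levels of the other lines, and replicate 2 is the lowest for each gene.

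Markers of other cells also differed between the lines, in an order that varied with the list. Of 24 fibroblast markers, 23 were measured, and 17 were called higher in R1 and 14 higher in P19 NTES7 than in P19. Their summed intensity was 797 to 830 in P19, 1968 to 2321 in P19 NTES7 and 2683 to 3074 in R1, and 7, 20 and 21 of them lay above the array median in the 3 lines. Among them, the collagen gene Col1a1 had means of 49.2, 297 and 342 in the order P19, P19 NTES7, R1, and Dcn, which encodes decorin, 8.45, 80.6 and 232. P19 NTES7 had 4 of the 23 called lower than R1, and 0 higher. The fibroblast sums thus followed the order of Klf2, Klf4, Klf5 and Klf9 over the lines, and their part in the levels of these members was not tested. Bright probe sets weigh most in sums of this kind, such as Vim with means of 443, 637.5 and 643. The 5 markers of extraembryonic and endoderm cells summed to 57.7 to 59.3 in P19, 82.0 to 89.4 in P19 NTES7 and 76.3 to 85.1 in R1. Of the 5, 1 was called between P19 NTES7 and P19, Gata6, which was higher in P19 NTES7 (log2 difference 1.03, SE 0.098, limma adjusted p = 7.84e-06). In that comparison Gata4 was at 0.80, Sox17 at 0.18, Afp at 0.06 and Cdx2 at -0.08. In P19 NTES7, 3 of the 5 were not above the array median. The part of this list in the members' levels was not tested. Markers of endothelial cells, a cell type rich in Klf2, summed to 56.4 to 58.7 in P19, 58.9 to 64.3 in P19 NTES7, and 77.2, 83.8 and 124 in R1. Of these 4 markers, 1 was called higher in R1 than in P19. It was Pecam1, with means of 13.7, 20.45 and 38.3 in the order P19, P19 NTES7, R1. Cdh5 had means of 9.15, 11.6 and 9.08, Kdr 8.19, 13.4 and 14.15, and Tek 26.8, 16.3 and 33.5. The part of this list in the level of Klf2 was not tested.

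Immediate early genes respond quickly to serum, handling or stress, and their sum had the same order over the lines as Klf6. Of 16 measured, 8 were called higher in R1 and 10 in P19 NTES7 than in P19, and 4 (Jun, Egr2, Atf3 and Dusp1) were higher in P19 NTES7 than in R1. The AP-1 subunits Fosb and Fos had the largest differences between R1 and P19: Fosb had means of 10.7, 137 and 85.6 in the order P19, P19 NTES7, R1, and Fos 9.04, 95.2 and 64.8. Dusp1, a MAP kinase phosphatase, had means of 89.8, 1004 and 477, and Ccn1, a matrix protein, 46.0, 225 and 153.5. The summed intensity of the list was 536.5 to 556 in P19, 2137 to 2603 in P19 NTES7, and 1194, 1201 and 1702 in the R1 arrays. In P19 NTES7 and R1, Dusp1 had the highest mean of the list and so weighed most in the sum. R1 replicate 3, with the highest sum of its line, was also the highest R1 array for Klf6, Klf7, Klf10 and Klf2. In P19 NTES7, Klf10 was highest and lowest on the same arrays as the sum, while Klf6 was highest where the sum was lowest. The part of this list in the levels of Klf6 and Klf10 was not tested.

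**Figure D5:**
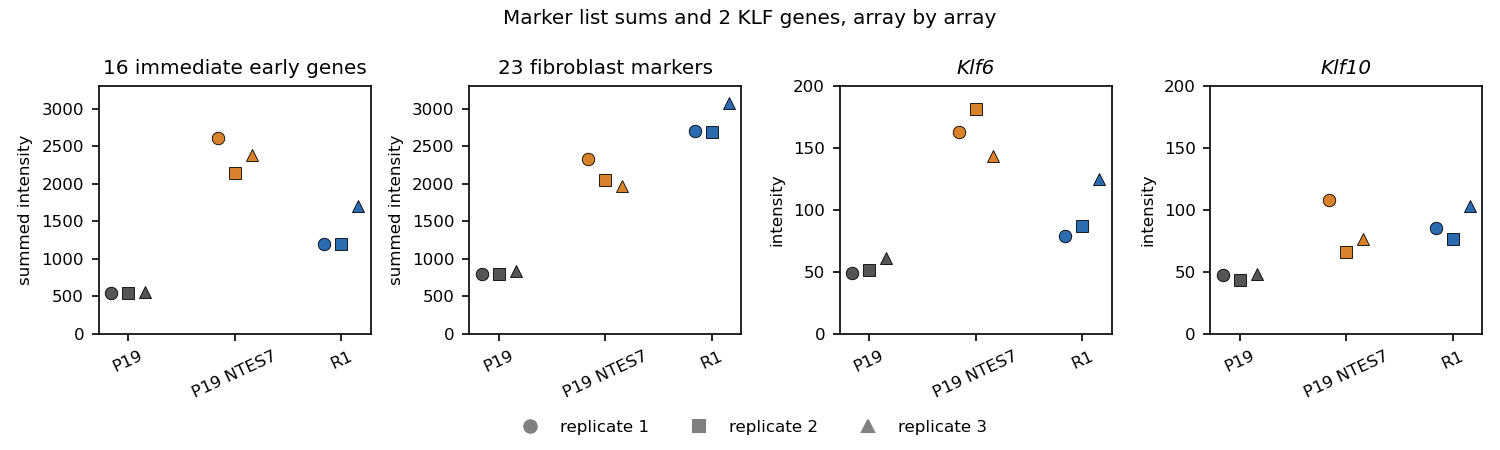
Summed intensity of 16 immediate early genes and 23 fibroblast markers (left panels) and intensity of Klf6 and Klf10 (right panels) in each array of P19, P19 NTES7 and R1. The immediate early sum and Klf6 are highest in P19 NTES7, the fibroblast sum is highest in R1, and R1 replicate 3 is the highest R1 array in all 4 panels.

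The other KLF and SP factors showed few such differences. Of 16 in the list, 15 were measured, and 8 of them were not above the array median in P19. Klf12, a CtBP-recruiting repressor like Klf3, was called higher in R1 than in P19. It read 18.6, 17.04 and 20.2 in P19, 28.1, 24.98 and 19.6 in P19 NTES7, and 73.0, 70.0 and 103 in R1, so that P19 and P19 NTES7 overlapped. The log2 difference was 2.12 between R1 and P19 (SE 0.16, 4.35-fold, adjusted p = 2.07e-07) and -1.75 between P19 NTES7 and R1 (SE 0.16, adjusted p = 2.64e-06). Sp4 was called higher in P19 NTES7 than in R1, with means of 51.8 ± 7.41 and 24.8 ± 2.72 (SD, n = 3; log2 difference 1.06, SE 0.12, adjusted p = 1.93e-05). Between P19 NTES7 and P19, 0 of the 15 were called by limma or by the test of the methods, 2 passed the adjusted p limit alone and 7 had an unadjusted p under 0.05. The median log2 difference of the 15 was 0.12 between R1 and P19 and 0.22 between P19 NTES7 and P19.

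Most partners of the naive network were also higher in R1. Of 14 partner genes, 9 were called higher in R1 than in P19, 5 rose and 1 fell from P19 to P19 NTES7, and 7 fell from R1 to P19 NTES7. Their median log2 differences were 1.79, 0.60 and -1.21. Tfcp2l1, a transcription factor downstream of LIF, had means of 12.6, 29.8 and 333 in the order P19, P19 NTES7, R1, and the orphan receptor gene Esrrb 9.26, 32.4 and 230. Zfp42, the Rex1 gene, had means of 19.7, 41.7 and 289, and Nr5a2, a nuclear receptor gene, 10.1, 14.5 and 121. Not all partners had this order. The 1 that fell from P19 to P19 NTES7 was Nr0b1, named after its values were seen, with means of 607, 33.7 and 561. Its log2 difference was -4.14 from P19 and -4.06 from R1 (SE 0.14 each).

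In the LIF pathway, which lies upstream of Klf4, 1 of 11 genes was called higher in R1 than in P19 and 2 in P19 NTES7, with 0 lower. Pim1, a kinase gene induced by Stat3, was called in both, with means of 46.3, 117 and 134 in the order P19, P19 NTES7, R1. Jak2, the kinase gene called only in the second of these comparisons and named after its values were seen, had means of 18.7, 47.0 and 28.2. With the adjusted p limit of limma alone, 5 genes of the list were higher and 2 lower in R1 than in P19. In P19 NTES7, 5 were higher and 1 lower than in P19. The 2 lower in R1 were Lifr (means 254.5, 187 and 166) and Stat3 (289, 382.5 and 220), also named after their values were seen. The kinases, MEF2 factors and ubiquitin ligases that act on KLF genes or proteins had 0 calls among 10 measured genes in all 3 comparisons, by limma and by the test of the methods. In limma, 4, 2 and 2 of them passed the adjusted p limit alone, and 6, 4 and 5 had an unadjusted p under 0.05. TGF-beta signalling genes, which act upstream of Klf10, had 0 calls among 9 measured genes in each comparison by both tests. In limma, 5, 2 and 2 passed the adjusted p limit alone, and 6, 6 and 4 had an unadjusted p under 0.05.

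Of the 10 corepressor and coactivator genes, 2 were called in R1. Ctbp2, whose product is a corepressor bound by Klf3 and Klf12, had means of 146, 133.5 and 369 in the order P19, P19 NTES7, R1, and Kat2b, an acetyltransferase gene, 35.6, 27.1 and 81.5. Both were called higher in R1 than in P19 and lower in P19 NTES7 than in R1, and neither was called between P19 NTES7 and P19. With the adjusted p limit of limma alone, 3 of the 10 were higher and 3 lower in R1 than in P19. Among the lower ones was the other CtBP gene, Ctbp1, named after its values were seen. Its means were 217, 160.1 and 144 (log2 difference between R1 and P19 -0.59, SE 0.11, limma adjusted p = 0.00103). Among 7 measured genes of the primed epiblast, Fgf5 and Eomes were called higher and Otx2 lower in R1 than in P19. Fgf5, a marker of the primed state, had means of 20.8, 41.95 and 73.4, and Otx2, a factor of the same state, 214, 137 and 102.

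The genes whose pattern over the 9 arrays was most like that of each naive member were ranked among 19937 genes by the Euclidean distance of log2 values centred on the mean of each gene. For Klf2 they were Ifitm1 (0.576), Cdh1 (0.674) and Arid5b (0.697), with Klf4 at rank 5 (0.738) and Klf5 at rank 6 (0.779). Cdh1 encodes E-cadherin and had means of 85.3, 174 and 473 in the order P19, P19 NTES7, R1. For Klf4 they were Gab1 (0.390), Dennd2c (0.568) and Crabp1 (0.619), with Klf2 at rank 5 and Klf5 at rank 8. Gab1, the gene of a docking protein of receptor kinases, had means of 37.3, 109 and 314. For Klf5 they were Tfap2c (0.292), Ccn2 (0.545) and Emp1 (0.608), with Klf2 at rank 15 and Klf4 at rank 32. Tfap2c encodes an AP-2 transcription factor of trophectoderm and germ cells and had means of 18.6, 55.1 and 105.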

How the data were processed

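The authors prepared the intensity values with Robust Multichip Average, per the methods and the labels, from 9 Affymetrix GeneChip Gene 1.0 ST arrays (3 for each of 3 lines). They were used as deposited, on the linear scale, and do not carry the scaling to a common median named in the methods. The number of arrays limits the precision. No genome build comes with the values, and genes were named through the platform annotation (21789 of 28853 probe sets with 1 symbol, 1621 with several, 5443 with none), taking the brightest probe set of a gene.

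Log2 values were fitted with limma 3.58.1 (R 4.3.3), with a mean for each line over all 9 arrays, and p-values were adjusted over all probe sets. Limits followed the study (p under 0.01, fold over 2). Fits were tested on simulated data first. Levels are given with SDs over the arrays of a line, log2 differences with standard errors (SE) of the fit.

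The members and all gene lists were chosen with earlier results of these data known. Genes named were all members, at most 4 genes of each pathway list called between R1 and P19 with the largest difference, every KLF or SP factor called in any comparison, and the 3 genes most like each naive member; of the marker lists and where stated, genes were chosen after their values were seen. The replicate numbers of the labels do not pair the samples: deviations of same-numbered arrays correlated between -0.223 and 0.0404. Those of arrays with different numbers correlated between -0.15 and 0.207. The highest value was that of R1 replicate 3 with P19 NTES7 replicate 1, which both had a low lower quartile. Alternatives comprised normalization, centring, a pseudocount of 16, a filter, the mean of a gene's probe sets, other variance models, the ANOVA of the methods, the replicate number as a block and leaving out each array. Promoter windows came from RefSeq (GRCm38.p6).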

Additional observations from a re-analysis of the deposited data

How the results depend on the processing

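The number of arrays (3 per line) limits the precision, and Klf4 in P19 lay below the median of the probe sets. Of 540 log2 differences of members under the alternatives named with the methods, 3 newly passed both limits together and 4 no longer did. Of the 22 differences past the p limit, none changed sign, and 13 of their 396 values under these alternatives lost that limit, for Klf6 against R1 and for Klf7, Klf9 and Klf10 between P19 NTES7 and P19. The sign changed in 9 of the 540, all of differences that had passed no limit. Many of the 540 could not change in sign or size. The filter, the mean of a gene's probe sets, the replicate block and the variance models other than array weights keep each log2 difference by construction. Leaving out an array of the line not compared does so too. In these, only the p-value could change. Klf16 between P19 NTES7 and P19 was -0.00084 with centred arrays and -0.04 with array weights, and ranged from -0.03 to 0.11 without single arrays. Between P19 NTES7 and R1 without single arrays, Klf7 ranged from -0.07 to 0.23, Klf10 from -0.31 to 0.05 and Klf13 from -0.15 to 0.01. With a pseudocount of 16, which shrinks differences of dim genes by construction, the naive medians were 2.28 (R1 against P19), 0.98 (P19 NTES7 against P19) and -1.30 (P19 NTES7 against R1). Members called fell to 2 in the second comparison (Klf2 at 0.90 and Klf4 at 0.98) and to 4 in the third (Klf5 at -0.96), probe sets called were 1088, 412 and 709 in place of 2135, 839 and 1305, and the Klf4 share was 0.430. With array weights the naive median between R1 and P19 was 2.83, and without single arrays it ranged from 2.80 to 3.09. That of the other members ranged from 0.62, without R1 replicate 3, to 0.91.

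After seeing the data, the fit was repeated with only the 5 arrays whose lower quartile was low. R1 and P19 NTES7 then have 1 array each, assumed to vary like the P19 arrays, so only differences are given. The naive median was 3.06 between R1 and P19. Between P19 NTES7 and R1, Klf2 was at -1.54 and Klf5 at -0.84, the latter under the fold limit. Klf7 was at -0.16, Klf10 at 0.06 and Klf13 at 0.22 in that comparison, with the sign changed. Without both R1 replicate 3 and P19 NTES7 replicate 1, the median of the other members was 0.62 between R1 and P19. The causes were not tested.

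The replicate block left 4, 4 and 5 members and 2136, 837 and 1302 probe sets called in the 3 comparisons, and changed no call of a member; Klf9 between P19 NTES7 and P19, under the fold limit before, also lost the p limit (adjusted p = 0.012). The 1-way ANOVA of the methods also called 4, 4 and 5 members, before and after Benjamini-Hochberg adjustment.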
